A study of Mus musculus with 16 samples.

Results

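The genes described here are 9 genes of the complement system and its relatives in mouse brown adipocytes: *C3*, *C4b*, *C2*, *Cfb*, *Cfd* (adipsin), *C1s1*, *C1ra*, *Serping1* and *C1qtnf1*. They were chosen by name, as the rows of the count table that carry these gene symbols, and make up 9 of its 54347 genes. Of these, 8 passed the filter on low counts and were among the 13150 genes tested; *Serping1* did not pass. RNA came from wt1-SAM, a single immortalised line of brown preadipocytes with a stably integrated CRISPRa SAM system, which can switch on a chosen gene and which every group therefore shares. All cells were differentiated with a cocktail of rosiglitazone, T3, dexamethasone, insulin, indomethacine and IBMX, and were then kept on rosiglitazone. On day 4 they were reverse transfected with 250 ng of plasmid, which was either the empty sgRNA vector or the pSgRNA-MS2-2+7 plasmids, whose guides target the lncRNA *Gm15551*, and they were harvested on day 7. Within each plasmid, cells were left as controls or received 1 µM of isoproterenol, a non-selective β-adrenergic agonist, for the last 24 h. Each of the 4 groups (empty vector control, empty vector stimulated, sgRNA control, sgRNA stimulated) had 4 libraries, numbered as replicates 3 to 6. Nothing in the labels says that the replicates were separate cultures, so the p-values measure the spread between these samples.

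Complement is a cascade of plasma proteins that marks surfaces for removal and drives inflammation. In the classical pathway the proteases C1r and C1s, bound to C1q, cleave C4 and C2, and the resulting enzyme cleaves C3; in the alternative pathway factor D (adipsin, encoded by *Cfd*) cleaves factor B (*Cfb*) on C3b, which amplifies the deposition of C3. The liver makes most of these proteins, but adipocytes are the main source of adipsin and also secrete C3 and factor B. *Serping1* encodes the C1 inhibitor, and *C1qtnf1* encodes a secreted protein with a C1q-like domain that belongs to the family of adiponectin and is not itself a component of the cascade.

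The libraries held 9053521 to 16546187 counts. A ribosomal RNA gene took 11.7% to 51.8% of them, with 19.7% to 51.8% in the 8 empty vector libraries and 11.7% to 28.7% in the 8 sgRNA libraries. Levels are therefore given as CPM, the count relative to library size, scaled by TMM, a factor computed from the bulk of the genes. A count of 3, taken as the floor of detection, corresponded to 0.166 to 0.39 CPM. The fatty acid binding protein *Fabp4*, a defining gene of adipocytes, stood between 8215 and 19506 CPM in all libraries. *Gm15551* itself had a mean of 0.952 CPM in empty vector control cells and 2.97 CPM in sgRNA control cells. After stimulation the means were 0.147 CPM and 1.56 CPM. It was higher with the sgRNA in 8 of 8 pairs of libraries that shared a replicate number and a treatment. The averaged log2 fold change was 2.37 (edgeR's quasi-likelihood F test, Benjamini-Hochberg adjusted p = 0.0989) in the fit of group means and 2.41 (SE 0.28, adjusted p = 0.000550) in the fit that also takes the replicate number as a block. Both fits are given below wherever they differ in a call, which is an adjusted p under 0.05 with a log2 fold change beyond 0.5 in either direction. The first is named the unblocked fit and the second the blocked fit.

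*Cfd* and *C3* led the levels, and *C1s1*, *C2*, *C1qtnf1* and *Serping1* stood at the other end. Per kilobase of exon, over all 16 libraries, *Cfd* had 90.4 ± 60.1 CPM per kb (SD, n = 16), *C3* 20.4 ± 7.76 and *Cfb* 7.21 ± 4.82. *C4b* followed with 1.498 ± 1.04 CPM per kb and *C1ra* with 0.775 ± 0.415. *C1qtnf1* (0.290 ± 0.271), *C1s1* (0.271 ± 0.345) and *C2* (0.197 ± 0.0886) came next, and *Serping1* had 0.0251 ± 0.0300. In this order the neighbours *C4b* and *C1ra*, *C1qtnf1* and *C1s1*, and *C1s1* and *C2* differed by less than the larger of their SDs. Among all tested genes, the level in CPM put *C3* at percentile 91.3, *Cfd* at 88.3, *Cfb* at 56.2, *C4b* at 36.4 and *C1ra* at 18.4, whereas *C1qtnf1*, *C1s1* and *C2* lay between percentiles 4.09 and 6.62.

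*Cfd* fell with stimulation, with the largest difference of the 8 tested genes. The gene (ENSMUSG00000061780) lies on the plus strand of GRCm38 at chr10:79890853-79892655 and encodes adipsin, the serine protease that activates factor B. In replicates 3, 4, 5 and 6, *Cfd* had 107, 54.6, 176 and 100.4 CPM in empty vector control cells and 25.8, 21.5, 49.4 and 45.7 CPM in stimulated empty vector cells. In sgRNA cells the same replicates had 122, 61.2, 199 and 157 CPM as controls and 41.5, 29.7, 84.2 and 58.2 CPM after stimulation. The control and stimulated libraries did not overlap in empty vector cells. They did in sgRNA cells, where replicate 5 was the highest in both treatments and its stimulated library stood above the control library of replicate 4.

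Averaged over the plasmids, isoproterenol lowered *Cfd* to 0.358 of its control level (log2 fold change -1.48, SE 0.29, edgeR quasi-likelihood adjusted p = 0.00763). The blocked fit gave -1.45 (SE 0.085, adjusted p = 1.04e-08), and *Cfd* was lower in 8 of 8 pairs. In the unblocked fit the call was lost without replicate 3 (log2 fold change -1.40, adjusted p = 0.144) and kept in the other 19 fits that each left out a replicate or a library. Within the plasmids the blocked fit called *Cfd* lower in empty vector cells (-1.58, SE 0.12, adjusted p = 7.43e-07) and in sgRNA cells (-1.32, SE 0.12, adjusted p = 3.02e-06), while the unblocked fit gave adjusted p = 0.0948 and 0.228.

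*C3*, the protein on which all pathways of the cascade converge, had the highest mean CPM over the 16 libraries among the 9 genes, although *Cfd* had the higher mean in sgRNA control cells. The gene (ENSMUSG00000024164) lies on the minus strand at chr17:57203970-57228136. In replicates 3 to 6, in that order, *C3* had 134, 129.5, 172 and 117 CPM in empty vector control cells and 62.1, 73.8, 168 and 82.7 CPM in stimulated ones. In sgRNA cells it had 112, 97.7, 163 and 95.5 CPM in control cells and 55.5, 54.2, 105 and 60.0 CPM after stimulation. With TMM, replicate 5 was the highest in every group. Its stimulated libraries were the only ones that reached into the range of the controls of the same plasmid. Scaled by the total count instead, its empty vector control library was the lowest of that group (112 CPM against 125 to 148 CPM). The ribosomal RNA gene took 47.3% of that library. Its stimulated empty vector library, at 108 CPM, then stayed below the controls.

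The log2 fold change of *C3* with isoproterenol, averaged over the plasmids, was -0.64 (SE 0.20, edgeR adjusted p = 0.0929) in the unblocked fit. In the blocked fit *C3* fell to 0.617 of its control level (log2 fold change -0.70, SE 0.086, adjusted p = 3.11e-05). It was lower in 8 of 8 pairs, and the pairs of empty vector libraries ranged from -1.11 in replicate 3 to -0.04 in replicate 5. The unblocked fit also called *C3* without replicate 5 (-0.82, adjusted p = 0.000337), without the stimulated empty vector library of replicate 5 (-0.85, adjusted p = 0.00669) and without the stimulated sgRNA library of replicate 5 (-0.78, adjusted p = 0.0343). Within the plasmids the blocked log2 fold changes were -0.60 (SE 0.12, adjusted p = 0.00461) in empty vector cells and -0.79 (SE 0.12, adjusted p = 0.000610) in sgRNA cells, and the unblocked ones -0.52 (adjusted p = 0.601) and -0.77 (adjusted p = 0.3995). The blocked value in empty vector cells lost its call without replicate 3 (-0.45, adjusted p = 0.0347), without replicate 4 (-0.53, adjusted p = 0.0765) and without the stimulated empty vector library of replicate 3 (-0.47, adjusted p = 0.0144).

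Since *C3* and *Cfd* both fell with stimulation, the sequence in front of each gene is shown from RefSeq (GRCm38.p6), from 250 bases before the start site to 50 bases after it, at chr17:57228087-57228386 on the minus strand for *C3* and at chr10:79890603-79890902 on the plus strand for *Cfd*. Capitals mark the single match found to 5 motifs searched on both strands.
C3: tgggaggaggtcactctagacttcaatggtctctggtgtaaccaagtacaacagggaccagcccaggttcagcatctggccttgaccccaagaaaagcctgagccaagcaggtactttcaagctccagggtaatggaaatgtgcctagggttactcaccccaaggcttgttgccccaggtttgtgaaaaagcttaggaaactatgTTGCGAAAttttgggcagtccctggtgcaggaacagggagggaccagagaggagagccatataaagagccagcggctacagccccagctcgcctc
Cfd: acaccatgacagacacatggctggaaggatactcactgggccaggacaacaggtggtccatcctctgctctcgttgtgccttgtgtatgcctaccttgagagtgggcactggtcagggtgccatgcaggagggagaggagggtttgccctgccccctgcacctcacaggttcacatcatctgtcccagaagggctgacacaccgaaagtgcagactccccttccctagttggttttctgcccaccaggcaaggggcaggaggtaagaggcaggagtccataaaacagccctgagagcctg

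The match in the *C3* window is to the C/EBP motif TTGCNNAA, from base -45 to -38 counted from the start site; 10.8% of all 32851 windows of this length held that motif on either strand. The other motifs searched were NF-kB (GGNNTTTCC, in 5.82% of all windows), STAT (TTCNNNGAA, 8.3%), the interferon-stimulated response element (GAAANNGAA, 8.56%) and the core of the cAMP response element (TGACG, 20.8%). The STAT motif reads the same on both strands, and its GAA can overlap the GAA of the interferon-stimulated response element. None of the 5 was spelled out in the *Cfd* window. Windows were at hand for 4 of the 9 genes, namely *C3*, *Cfd*, *C1s1* and *C1ra*. The *C1ra* window, at chr6:124512371-124512670, held the C/EBP motif from base 17 to 24 on the reverse strand and the STAT motif from base 33 to 41. These bases are counted from the RefSeq start site. The *C1ra* gene annotated by GENCODE starts earlier, at 124512405, so that most of this window and both matches lie inside that gene. Of the overlapping *C1s1* windows, 1 held the C/EBP motif, from base -242 to -235 on the reverse strand.

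*Cfb* was lower with the sgRNA plasmids, and was the only 1 of the 8 tested genes called for them, in the blocked fit. It encodes factor B, the substrate of adipsin and the catalytic part of the alternative pathway convertase, and lies on the minus strand at chr17:34856374-34862518 (ENSMUSG00000090231). In replicates 3 to 6, in that order, *Cfb* had 51.3, 37.7, 16.2 and 16.6 CPM in empty vector control cells and 23.8, 22.8, 11.3 and 7.52 CPM in sgRNA control cells. After stimulation it had 30.7, 41.5, 9.42 and 12.9 CPM with the empty vector and 15.5, 18.9, 5.45 and 4.52 CPM with the sgRNA. The groups overlapped, because replicates 3 and 4 stood above replicates 5 and 6 in each group, and within each pair the sgRNA library was the lower one.

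The averaged log2 fold change of *Cfb* with the sgRNA was -1.004 in the unblocked fit, which did not call it (SE 0.39, unadjusted p = 0.0218, edgeR adjusted p = 0.999707). In the blocked fit *Cfb* fell to 0.501 of the empty vector level (-0.998, SE 0.11, adjusted p = 0.000475). It was lower in 8 of 8 pairs, by -0.52 to -1.48 on the log2 scale, and stayed called in each of the 20 blocked fits that left out a replicate or a library (-1.08 to -0.91, adjusted p from 0.000226 to 0.0215). With the share of the ribosomal RNA gene added to the blocked fit, the log2 fold change was -1.30 (adjusted p = 0.000507). The sgRNA plasmids were compared with an empty vector and not with guides to another target, so a difference due to *Gm15551* and one due to carrying any guide in this line cannot be told apart.

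Within the treatments the blocked log2 fold change of *Cfb* was -0.88 (SE 0.16, edgeR adjusted p = 0.0613) in control cells and -1.11 (SE 0.16, adjusted p = 0.0127) in stimulated cells. Unblocked it was -0.91 (adjusted p = 0.999967) and -1.10 (adjusted p = 0.999554). The blocked call in stimulated cells was lost without replicate 3 (adjusted p = 0.0896), replicate 4 (0.0930) or replicate 6 (0.204). Among single libraries it was lost without the stimulated empty vector library of replicate 4 (adjusted p = 0.153) or 6 (0.0507) and without the stimulated sgRNA library of replicate 3 (0.102) or 6 (0.0725). In control cells *Cfb* was called without the control empty vector library of replicate 4 (adjusted p = 0.0415), the stimulated empty vector library of replicate 3 (0.0482) or 5 (0.0402), or the control sgRNA library of replicate 5 (0.0294). The annotated gene *Gm20547* overlaps 79.5% of the exon bases of *Cfb* and 42.8% of those of *C2* on the same strand. It had 16 counts in the sgRNA control library of replicate 3, 2 in the stimulated sgRNA library of replicate 3 and 0 in the others, and adding its counts to *Cfb* left the blocked call in place (-0.98, adjusted p = 0.000527).

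With isoproterenol, *Cfb* had an averaged log2 fold change of -0.46 (SE 0.39, edgeR adjusted p = 0.608) in the unblocked fit and of -0.50 (SE 0.11, adjusted p = 0.00495) in the blocked fit, where it fell to 0.706 of the control level. That value lay just beyond the 0.5 limit. It was lower in 7 of 8 pairs, the exception being replicate 4 of the empty vector cells (0.14). In 10 of 20 blocked fits that left out a replicate or a library the value came inside the limit or lost its adjusted p. It was -0.42 without replicate 3 (adjusted p = 0.0602) and -0.40 without replicate 5 (adjusted p = 0.0290). Without single libraries it was -0.44 and -0.48 (control empty vector, replicates 3 and 6), -0.45 and -0.45 (stimulated empty vector, replicates 3 and 5), -0.44 (control sgRNA, replicate 5) and -0.49, -0.50 and -0.47 (stimulated sgRNA, replicates 3, 5 and 6). With the share of the ribosomal RNA gene added to the fit it was -0.39 (adjusted p = 0.0118). Within the plasmids the blocked values were -0.39 (adjusted p = 0.136) in empty vector cells and -0.62 (adjusted p = 0.0298) in sgRNA cells, and the unblocked ones -0.37 (adjusted p = 0.903) and -0.56 (adjusted p = 0.918). The blocked value in sgRNA cells was not called in 8 of 20 fits that left out a replicate or library, namely those without replicate 3 (adjusted p = 0.103), 5 (0.121) or 6 (0.107), without the control sgRNA library of replicate 3 (0.0741) or 5 (0.0870), and without the stimulated sgRNA library of replicate 3 (0.0926), 5 (0.0819) or 6 (0.0914). The blocked value in empty vector cells was called without replicate 4 (-0.62, adjusted p = 0.0389) and without the control empty vector library of replicate 4 (-0.55, adjusted p = 0.0460).

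**Figure D1:**
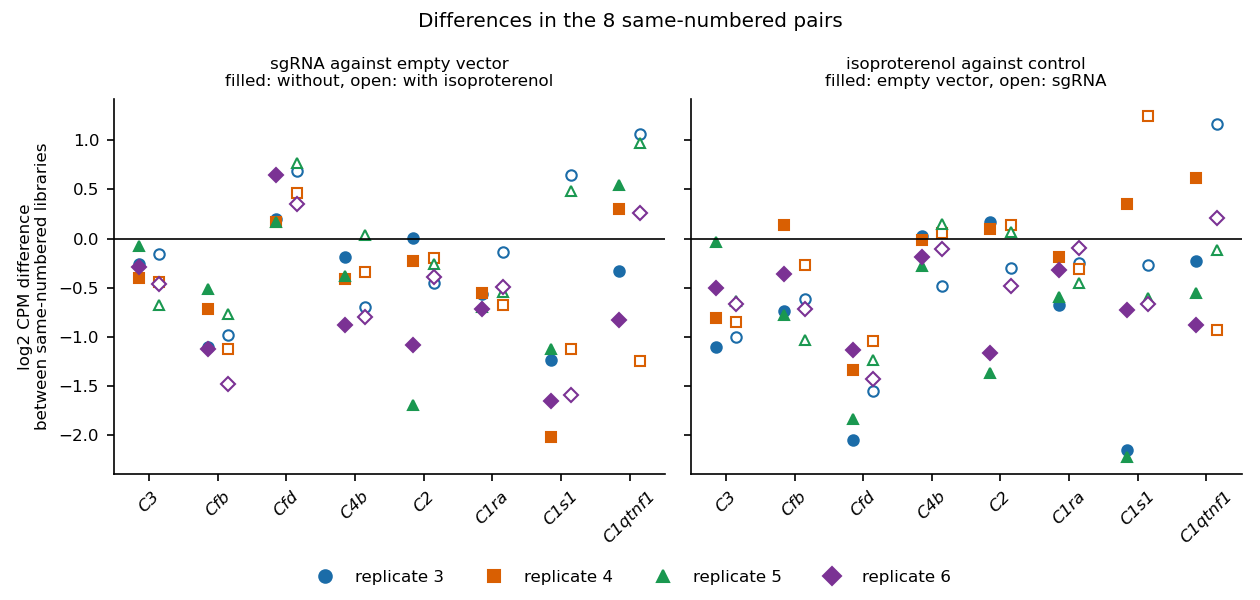
Difference in log2 CPM within each pair of libraries that share a replicate number, for sgRNA against empty vector and for stimulated against control cells; each point is 1 of 8 pairs. *Cfb* lies below 0 in all 8 pairs for the sgRNA, and *Cfd* and *C3* lie below 0 in all 8 pairs for isoproterenol.

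*Cfd* and *C3* differed less with the sgRNA, and in opposite directions. *Cfd* was higher in 8 of 8 pairs (log2 fold change 0.45, edgeR adjusted p = 0.999707 unblocked; 0.42, SE 0.083, adjusted p = 0.0348 blocked), which is under the limit of 0.5 for a call. *C3* was lower in 8 of 8 pairs (-0.36, adjusted p = 0.999707 unblocked; -0.36, SE 0.086, adjusted p = 0.0806 blocked). With TMM the mean *C3* level was 138 CPM with the empty vector and 117 CPM with the sgRNA in control cells, and 96.6 and 68.7 CPM in stimulated cells. Scaled by the total count instead, which includes the ribosomal RNA gene and its unequal share between the plasmids, these means were 131 and 133 CPM in control cells and 78.8 and 74.8 CPM in stimulated cells, so that the direction turned in control cells only. The group means of *Cfb* and *Cfd* kept their directions in both treatments under that scaling. By pairs of libraries scaled by the total count, the sgRNA library was the lower one in 7 of 8 pairs for *Cfb*, 5 of 8 for *C3* and 6 of 8 for *C1ra*, and the higher one in 8 of 8 for *Cfd*; among all tested genes 0.0989% were lower and 14.1% higher in 8 of 8. For isoproterenol *C3*, *Cfd* and *C1ra* stayed lower in 8 of 8 pairs, as were 11.3% of all genes. In stimulated cells alone, the blocked fit gave *Cfd* 0.55 on the log2 scale (SE 0.12, edgeR adjusted p = 0.167), and DESeq2 with the block called it higher there (0.56, adjusted p = 0.00497).

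The initiating proteases of the classical pathway had at most 54 counts in a library. *C1ra* and *C1s1* lie close to each other on chromosome 6, at chr6:124512405-124523443 on the plus strand and chr6:124530345-124542359 on the minus strand. *C1ra* ranged from 0.561 to 5.09 CPM (7 to 54 counts a library) and was lower with the sgRNA in 8 of 8 pairs, at -0.61 on the log2 scale (SE 0.36, edgeR adjusted p = 0.999707) unblocked and -0.60 (SE 0.13, adjusted p = 0.0594) blocked. It passed the limits without 1 library, the stimulated empty vector library of replicate 3 (-0.64, adjusted p = 0.0448). With isoproterenol it was also lower in 8 of 8 pairs, at -0.35 (SE 0.13, adjusted p = 0.0875) in the blocked fit. *C1s1* ranged from 0 to 4.15 CPM (0 to 40 counts), and its fitted difference with the sgRNA was -1.53 (SE 0.39, adjusted p = 0.112) in the blocked fit, lower in 6 of 8 pairs. Their paralogs held too few counts to be tested, with 15 counts for *C1rb* and 2 for *C1s2* over all libraries.

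*C4b* and *C2*, whose products form the classical C3 convertase, lie with *Cfb* in the MHC class III region of chromosome 17, at chr17:34728380-34743882 and chr17:34862604-34898265 on the minus strand. *C4b* ranged from 3.11 to 23.7 CPM, and the library of replicate 6 was the highest in each group, at 23.7, 20.7, 12.8 and 11.9 CPM. With the sgRNA it was lower in 7 of 8 pairs, with a blocked log2 fold change of -0.49 (SE 0.10, edgeR adjusted p = 0.0454) just inside the 0.5 limit. Without the stimulated libraries of replicate 5 it passed that limit (-0.54 and adjusted p = 0.0388 without the empty vector one, -0.54 and adjusted p = 0.0351 without the sgRNA one). With isoproterenol it was -0.10 (SE 0.10, adjusted p = 0.568). Its paralog *C4a*, which can share reads with it, had 4 to 27 counts a library, and adding these to *C4b* changed no call. *C2* had 4 to 18 counts a library, with blocked values of -0.61 (SE 0.28, adjusted p = 0.419) for the sgRNA and -0.37 (SE 0.28, adjusted p = 0.387) for isoproterenol.

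*Serping1* and *C1qtnf1* gave no call. *Serping1* (chr2:84765387-84775444, minus strand) had 12 counts in all, was at 0 in 8 of 16 libraries and never had more than 3 counts, so a difference was not detectable at this depth. *C1qtnf1* (chr11:118428203-118449963, plus strand) ranged from 1 to 31 counts a library, with blocked log2 fold changes of -0.06 (SE 0.32, edgeR adjusted p = 0.971) for the sgRNA and -0.05 (SE 0.32, adjusted p = 0.939) for isoproterenol.

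Counted over the 8 tested genes, 1 was called lower with isoproterenol in the unblocked fit (*Cfd*), against 1.32% of all tested genes called lower. In the blocked fit 3 were called lower (*Cfd*, *C3* and *Cfb*), against 2.61% of all tested genes. All 8 had a log2 fold change below 0 in both fits (49% and 49.4% of all tested genes), with a median of -0.41 and -0.44 beside 0.00 for all genes. Of the 8, 3 (*C3*, *Cfd* and *C1ra*) were lower in 8 of 8 pairs, as were 7.67% of all tested genes; none was higher in 8 of 8, as 8.16% were.

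For the sgRNA, 0 of 8 genes were called in the unblocked fit of edgeR, beside 0% of all tested genes called lower; DESeq2 without the block also called 0 of the 8, and 0.076% of all genes in either direction. At an unadjusted p under 0.05 the unblocked fit had 2 of 8 (*Cfb* and *C1s1*) against 3.32% of all genes. The blocked fit called 1 lower, *Cfb*, against 0.221% of all genes called lower, and had 7 of 8 at an unadjusted p under 0.05 against 11.5% of all genes. In both fits 7 of 8 lay below 0 (53% and 52% of all genes), with medians of -0.59 and -0.54 beside -0.01. Of the 8, 3 (*C3*, *Cfb* and *C1ra*) were lower in 8 of 8 pairs, as were 2.07% of all genes, and 1 (*Cfd*) was higher in 8 of 8, as were 1.01%.

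**Figure D2:**
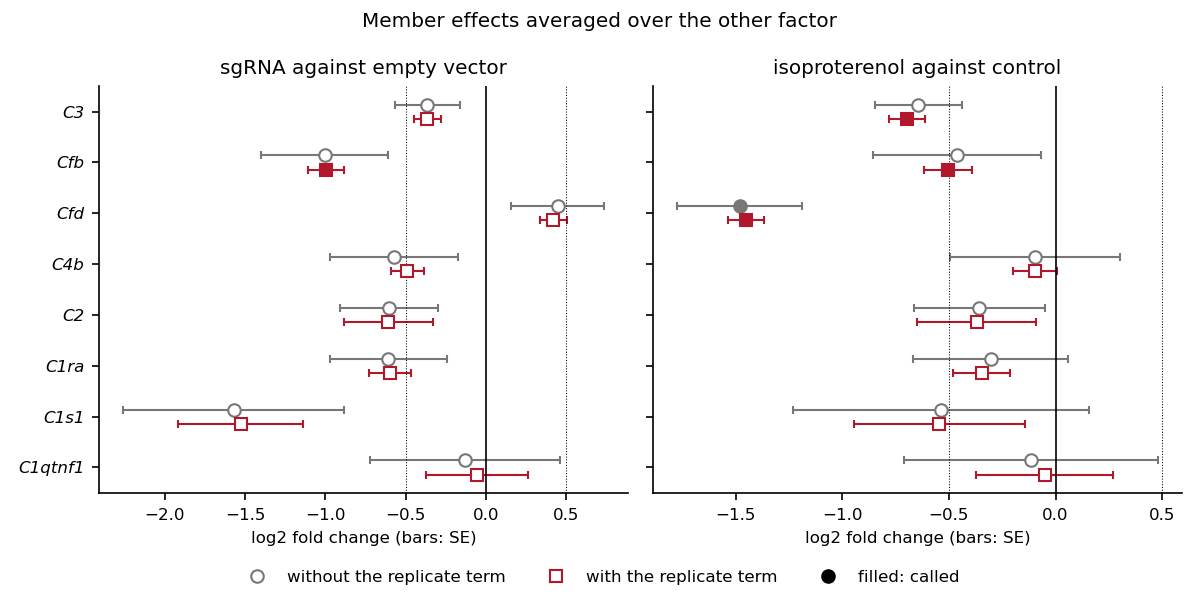
Log2 fold change of the 8 tested genes for the sgRNA and for isoproterenol, averaged over the other factor, in the unblocked and the blocked fit; bars are standard errors. The estimates of both fits lie close together for *C3*, *Cfb* and *Cfd*, while the standard error of *Cfb* shrinks from 0.39 to 0.11 with the block.

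Within single arms, edgeR's unblocked fit called 0 of 8 genes in every comparison, against 0% of all genes called lower for the sgRNA in either treatment, 0.373% for isoproterenol in empty vector cells and 0.297% in sgRNA cells. At an unadjusted p under 0.05 it had 0 of 8 for the sgRNA in control cells (1.48% of all genes) and 0 in stimulated cells (1.49%). For isoproterenol it had 1 in empty vector cells, *Cfd* (10.1%), and 2 in sgRNA cells, *C3* and *Cfd* (8.46%). DESeq2 without the block called 0, 0, 1 and 1 of the 8 in the same order, and 0.0228%, 0.0304%, 1.68% and 1.35% of all genes in either direction. Without replicate 5 the unblocked fit called *C3* for isoproterenol, at -0.80 (adjusted p = 0.0114) in empty vector cells and -0.85 (adjusted p = 0.00875) in sgRNA cells. The blocked fit called 0 for the sgRNA in control cells (0.0304% of all genes called lower) and 1 lower in stimulated cells (0.114%). For isoproterenol it called 2 lower in empty vector cells (2.15%) and 3 lower in sgRNA cells (1.83%). Whether the response to isoproterenol differed between the plasmids was tested as an interaction: 0 of 8 genes and 0% of all genes were called by edgeR in either fit, with 0 of 8 at an unadjusted p under 0.05 (0.395% of all genes unblocked and 1.51% blocked) and 0 of 8 by DESeq2. The blocked interaction was -0.19 (SE 0.17) for *C3*, -0.23 (SE 0.23) for *Cfb* and 0.26 (SE 0.17) for *Cfd*, each with an adjusted p of 0.999996. A joint test of any difference among the 4 groups at an adjusted p under 0.001 passed 0 of 8 genes unblocked (0.297% of all genes), with 2 of 8 at an unadjusted p under 0.05 (9.43% of all genes) and 1 of 8 by DESeq2 (1.61%). In the blocked fit it passed *C3* (adjusted p = 0.000120), *Cfb* (5.23e-05) and *Cfd* (1.10e-07), against 3.22% of all genes, and without replicate 6 it passed 1 of 8, against 1.11%.

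The replicate number moved most of these genes, and not in a common direction. It passed the test (adjusted p under 0.05 in edgeR's blocked fit) for 7 of 8 genes, all but *C2* (adjusted p = 0.287), against 54.7% of all tested genes. *Cfb* averaged 30.3 and 30.2 CPM in replicates 3 and 4 and 10.6 and 10.4 CPM in replicates 5 and 6. *C4b* averaged 17.2 CPM in replicate 6 and 4.43 to 6.90 CPM in the others, and *C1s1*, *C1ra* and *C1qtnf1* were also highest in replicate 6. *C3* and *Cfd* were highest in replicate 5, with means of 152 and 127 CPM. The summed preadipocyte and fibroblast markers were also highest in replicate 6, like *C4b*, *C1s1*, *C1ra* and *C1qtnf1* and unlike *C3*, *Cfd*, *Cfb* and *C2*. The summed level of the 12 listed genes was 97.9 to 155 CPM in replicate 6 and 32.3 to 80.5 CPM in replicates 3 to 5. The adipocyte markers summed to a mean of 16131 CPM in replicate 6 against 21870 to 25009 CPM in the others. The brown adipocyte markers summed to a mean of 465 CPM in replicate 5 against 251 to 310 CPM in the others. Most of the brown sum came from *Elovl3*, with 52873 counts over all libraries, followed by *Ppargc1a* with 10339. Most of the adipocyte sum came from *Fabp4*, with 3021833 counts, followed by *Lpl* with 806343. Neither sum therefore shows that the listed markers shifted together. In the empty vector libraries of replicate 5 the ribosomal RNA gene took 47.3% (control) and 51.8% (stimulated) of the counts. The part of these markers and of that share in the levels of the complement genes was not tested. In bulk samples, fewer cells of a type and less RNA per cell cannot be told apart.

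**Figure D3:**
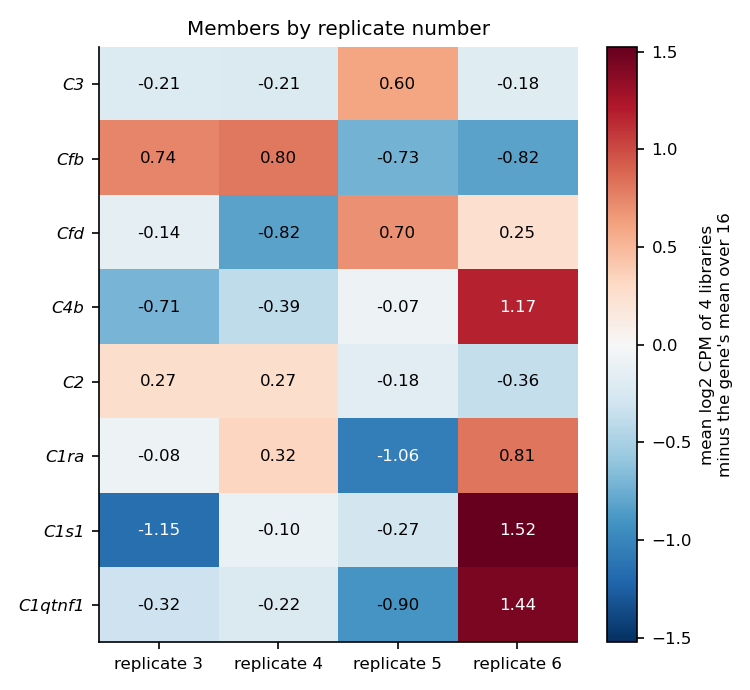
Heatmap of the mean log2 CPM of each tested gene over the 4 libraries that share a replicate number, minus the gene's mean over all 16 libraries. *C4b*, *C1s1*, *C1ra* and *C1qtnf1* peak in replicate 6, and *C3* and *Cfd* in replicate 5. *Cfb* lies above its mean in replicates 3 and 4 (0.74 and 0.80) and below it in replicates 5 and 6 (-0.73 and -0.82).

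After the mean of each replicate number was removed, *Cfb* and *C1ra* varied most alike among the pairs of tested genes (Pearson's r = 0.918 over the 16 libraries, which both genes share; 0.353 before removal). *Cfb* and *C4b* had r = 0.836 after removal and -0.39 before. *C1s1* and *C1ra* had 0.793 and *C3* and *C1ra* 0.756, whereas *Cfb* and *Cfd* had 0.223 and *C4b* and *Cfd* -0.04. *C1qtnf1* stood between -0.06 and 0.23 with the other genes. Among all tested genes, *Cfb* varied most like *Saa3* (r = 0.975) and *Hp* (0.932), which encode the acute phase proteins serum amyloid A3 and haptoglobin. *Cfd* varied closely like *Uck1* (0.978), *C3* like *Def8* (0.956) and *Tbc1d14* (0.955), *C1ra* like *Tmem176a* (0.931) and *Dram1* (0.923), and *C4b* like *Tmem38a* (0.868) and *Epb41l5* (0.841). At the lowest counts, *C2* varied most like *Arl2bp* (0.895) and *Pcdh18* (0.875), *C1s1* like *Zfp512* (0.897) and *E130317F20Rik* (0.853), and *C1qtnf1* like *Gm16001* (0.869) and *Erlin2* (0.778). Before removal, r with these best-matching genes ranged from -0.15 (*C1qtnf1* and *Erlin2*) to 0.953 (*C1s1* and *Zfp512*), with 0.513 for *C3* and *Def8* and 0.874 for *Cfb* and *Saa3*. They were picked as the best of all 13150 tested genes, so high values after removal come in part from that choice. These correlations are descriptions of the same 16 libraries and share their group differences.

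The remaining complement genes were mostly below the filter, and among those tested only receptors were called. Of 14 other recognition molecules and proteases 3 were tested (*Masp1*, *Masp2*, *Colec12*), of 8 other central and terminal components 2 (*C4a*, *C8g*), and of 17 other regulators 5 (among them *Cfp*, *Clu*, *Cd59a* and *Cr1l*); none of these 10 was called for the sgRNA or isoproterenol in either fit. At an unadjusted p under 0.05, 3 of these 10 passed for isoproterenol in the blocked fit, beside 33.5% of all tested genes, and 0 for the sgRNA, beside 11.5%. *Clu* (clusterin, a fluid phase inhibitor) had a blocked value of -0.48 (edgeR adjusted p = 0.0519) and *Masp1*, a protease of the lectin pathway, of -0.46 (adjusted p = 0.0797) with isoproterenol, while *Colec12*, a scavenger receptor with a collectin domain, had 0.24 (adjusted p = 0.0499). Of 10 receptors 4 were tested, and with isoproterenol 1 was called higher in the unblocked fit and 2 in the blocked fit. Among all tested genes 1.33% and 3.09% were called higher in these fits. *Cd93*, a C1q receptor candidate of myeloid and endothelial cells, rose with isoproterenol (log2 fold change 2.38, adjusted p = 0.00631 unblocked), and *Lrp1*, a receptor of many ligands, rose in the blocked fit (0.60, adjusted p = 0.00120). The first call was lost without replicate 3 (adjusted p = 0.0863) and the second without replicate 6, where the log2 fold change was 0.46. *Mbl2*, *Fcnb*, *C8a*, *C8b*, *Cd55b* and *Vsig4* had 0 counts in all 16 libraries.

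In the family of *C1qtnf1*, 3 of 11 other genes were tested, and 1 was called, lower with isoproterenol in either fit. It was *Adipoq*, which encodes adiponectin (-1.06, edgeR adjusted p = 0.00222). Among all tested genes, 1.32% were called lower with isoproterenol in the unblocked fit and 2.61% in the blocked fit. Of 17 signals and factors upstream of complement genes 14 were tested, and with isoproterenol 1 was called higher and 1 lower in either fit, beside 1.33% and 1.32% of all tested genes in the unblocked fit and 3.09% and 2.61% in the blocked fit. *Il6*, the main inducer of the acute phase response, rose with isoproterenol (1.92, edgeR adjusted p = 0.00145). It fell with the sgRNA in the blocked fit (-1.01, edgeR adjusted p = 0.0371) and was lower in 7 of 8 pairs. That call was lost in 17 of 20 fits that left out a replicate or library. For the sgRNA 1 of the 14 was called lower in the blocked fit and 0 in the unblocked fit, beside 0.221% and 0% of all tested genes. *Cebpb* and *Cebpd*, which encode C/EBP factors, had blocked values of 0.00 and -0.02 for isoproterenol, neither called. *Cebpa*, which encodes another C/EBP factor and is listed with the adipocyte markers below, was called lower with isoproterenol in the blocked fit.

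Markers of cell types were measured beside these results. With isoproterenol all 10 adipocyte markers had a value below 0; 5 of 10 fell in the unblocked fit (*Adipoq*, *Cidec*, *Lipe*, *Pnpla2* and *Retn*) and 7 in the blocked fit, which added *Cebpa* and *Plin1*, beside 1.32% and 2.61% of all tested genes called lower. Of 7 tested brown adipocyte markers 2 rose in the unblocked fit, *Ppargc1a* and *Ucp1*, the uncoupling protein of brown fat (4.03, edgeR adjusted p = 7.36e-06), and 3 in the blocked fit, which added *Cidea* (1.20), beside 1.33% and 3.09% of all tested genes called higher. *Ucp1* ranged from 0 to 15.5 CPM over all libraries, with a median of 2.68 CPM. *Dio2*, also on the list, had 1 count over all libraries and was not tested. Of the other tested brown markers 2 had a value below 0 in both fits and neither was called (*Prdm16* and *Cox8b*). With the sgRNA all 7 had a value above 0, with a median of 0.21 unblocked and 0.18 blocked, while 53% and 52% of all tested genes lay below 0, and 3 of 7 had an unadjusted p under 0.05 in the blocked fit, beside 11.5% of all tested genes. *Cidea* alone rose with the sgRNA in the blocked fit (1.05, adjusted p = 0.0348, beside 0.0456% of all tested genes called higher), a call lost in 14 of 20 fits that left out a replicate or library. The adipocyte markers summed to 17017 to 28021 CPM in empty vector control cells and 12910 to 22480 CPM in stimulated ones, and to 20724 to 26271 and 13872 to 24147 CPM in the same groups of sgRNA cells. Most of these sums was *Fabp4*. For the sgRNA 0 of 10 adipocyte markers were called in either fit, with 0 and 2 of 10 at an unadjusted p under 0.05, beside 3.32% and 11.5% of all tested genes. Of 14 macrophage and leukocyte markers 1 was tested, *Cd68*, which rose with isoproterenol (0.91) but was not called without replicate 3 (adjusted p = 0.107) or 6 (0.0524); the list summed to 8.70 to 14.7 CPM in empty vector controls, 15.4 to 23.5 CPM after stimulation, and 6.81 to 14.1 and 14.3 to 22.9 CPM in sgRNA cells. Nearly all of that sum was *Cd68* itself, with 2937 counts over all libraries, followed by *Mrc1* with 53. The defining members of the list, *Ptprc* and *Adgre1*, had 6 and 1 counts over all libraries, and the C1q genes *C1qa*, *C1qb* and *C1qc* had 15, 7 and 13.

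Of 12 preadipocyte and fibroblast markers 6 were tested, and the unblocked fit called 0 of them for either factor. *Ly6a* was called in the blocked fit, higher with isoproterenol (1.09) and lower with the sgRNA (-0.74). Among all tested genes that fit called 3.09% higher with isoproterenol and 0.221% lower with the sgRNA. In that fit the 6 had 3 values above and 3 below 0 with isoproterenol, and 2 above and 4 below with the sgRNA. The list summed to 33.5 to 130.1 CPM in empty vector control cells, 44.3 to 155 CPM in stimulated ones, and 32.3 to 97.9 and 40.3 to 130.4 CPM in sgRNA cells. Of 6 hepatocyte markers, which would mark the main source of plasma complement, *Apoa1* alone was tested and was called lower with isoproterenol in both fits (-1.40 unblocked, adjusted p = 0.0453); the list summed to 0.657 to 1.69 CPM in empty vector control cells, 0.129 to 1.02 CPM in stimulated ones, and 0.909 to 1.37 and 0.444 to 0.565 CPM in sgRNA cells. Of its defining genes, *Alb* had 25 counts in all and *Serpina1a* had 0. Of 5 endothelial markers 1 was tested and it was not called. The part of other cells in the differences of the complement genes was not tested.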

How the data were processed

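PolyA RNA of wt1-SAM cells, 16 samples in 4 groups of 4, was sequenced as paired-end libraries. According to the study's methods and the labels, the authors filtered reads by quality with cutadapt and ran Salmon on transcripts of GENCODE M22 (GRCm38), for some data joined with RNAcentral; the versions of these tools and strand handling are not given in the sources used here. The deposited values are estimated counts per gene, already whole numbers.

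Here the counts were tested in R 4.3.3 with edgeR 4.0.16 (filterByExpr with a minimum count of 10 and total of 15, TMM, glmQLFit, glmQLFTest, Benjamini-Hochberg adjustment over all 13150 tested genes), with 4 group means; DESeq2 1.42.0 was an alternative. Calls needed an adjusted p under 0.05 and a log2 fold change beyond 0.5, and the joint test an adjusted p under 0.001. CPM is TMM-scaled; the log2 CPM behind pairs and correlations has a prior count of 2. The tests were tried on simulated data first.

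Replicate numbers appear in the labels, where nothing says what they share. Libraries of the same number deviated together (every correlation of residuals from 0.224 to 0.613; between different numbers median -0.21, range -0.51 to 0.516), so the fit with the number as a block is given beside the main one. It lowered the median biological coefficient of variation from 18.0% to 9.96%.

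The 9 genes and the gene lists were chosen with earlier results of these data known. Beside the 9 genes, the text names (apart from some items not reported here) their paralogs, list genes called in an averaged comparison or at 0, and for each tested gene the 2 genes whose replicate-centred log2 CPM correlated best with it; the other tested list genes it names, and *Gm20547*, were chosen after their values were seen, as were the blocked fits without single libraries, the sums with *Gm20547* and *C4a* and the pairs scaled by total count. Positions are from a GENCODE annotation of GRCm38, promoter sequences from RefSeq (GRCm38.p6). Other alternatives left out each replicate and library, changed the filter or size factors, or dealt with the ribosomal RNA gene by removing it or by a covariate; their effects are in the closing section. The floor of 3 counts covers counting error only.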

Additional observations from a re-analysis of the deposited data

Results flagged for a closer look

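*C3* in the stimulated sgRNA library of replicate 5 stood apart from the other libraries of its group, at 105 CPM against 54.2 to 60.0 CPM. It was the only one of 32 sets of 4 libraries of a member and group whose highest or lowest library stood that far from the rest, and chance sets apart about 1 in 20. With TMM, the same replicate number had the highest *C3* level in each of the other 3 groups. Scaled by the total count, its empty vector control library was instead the lowest of that group, at 112 CPM against 125 to 148 CPM.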

How the results depend on the processing

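Counts of called complement genes rested mostly on the replicate block. For the sgRNA, averaged over treatments, the count was 0 in the unblocked fit and 1 with the replicate block, with DESeq2 with the block, and with the share of the ribosomal RNA gene as a covariate together with the block. For isoproterenol, averaged over plasmids, it was 1 in the unblocked fit, 3 with the replicate block and with DESeq2 with the block, and 2 without the filter on low counts, with DESeq2, and with the ribosomal RNA covariate with or without the block; leaving out 1 replicate or library gave 0 (without replicate 3) to 2 (without replicate 5 or either stimulated library of it). For the sgRNA in control cells the count of 0 became 1 with DESeq2 with the block and with the covariate and block. In stimulated cells it became 1 with the block, 2 with DESeq2 with the block and 1 with the covariate and block. For isoproterenol in empty vector cells the count of 0 became 2 with the block, with DESeq2 with the block and with the covariate and block, and 1 without the filter, with DESeq2 and with the covariate; leaving out 1 replicate or library gave 0 to 1. In sgRNA cells it became 3 with the block, with DESeq2 with the block and with the covariate and block, and 1 without the filter and with DESeq2; leaving out 1 replicate or library gave 0 to 1. The joint test over the 4 groups went from 0 to 3 with the block, with DESeq2 with the block and with the covariate and block, and to 1 without the filter and with DESeq2. The interaction stayed at 0 and the replicate number at 7 in each alternative run.

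Differences near 0 changed sign. *Cfb* with isoproterenol in empty vector cells was 0.094 with the ribosomal RNA covariate, and *C1qtnf1* with the sgRNA was 0.0066 in DESeq2 with the replicate block. Leaving out 1 replicate or library moved this *Cfb* value from -0.81 to 0.0023 and *C4b* with isoproterenol from -0.44 to 0.27. The interaction ranged from -0.53 to 0.15 for *C3*, from -0.60 to 0.26 for *Cfb* and from -0.038 to 0.52 for *Cfd*. For *C1qtnf1* the range was -0.52 to 0.52 (sgRNA) and -0.50 to 0.53 (isoproterenol), and with the replicate block -0.24 to 0.19 and -0.30 to 0.18. The causes of these changes were not tested. Depth limits *C1s1*, *C2*, *C1ra*, *C1qtnf1* and *Serping1*, with at most 54 counts in a library, and the overlap of *Gm20547* with *Cfb* and *C2* cannot be resolved from gene counts.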
